A study of Drosophila melanogaster with 15 samples.

Results

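The genes described here are 9 fly genes that are known from memory research and lie outside the cAMP pathway: CaMKII, 14-3-3zeta, 14-3-3epsilon, scb, Fas2, Rgk1, klg, rad and Gbeta76C. They were chosen by their FlyBase symbols, and 8 of the 9 were found among the 17559 gene IDs of the count files. scb, which encodes an alpha integrin, was not matched to an ID and is not analysed here. The values given below for rad are those of the gene that the annotation lists as rsh. The RefSeq gene table gives rad as a synonym of rsh and also of pins on 3R, and rsh was taken because it lies on the X chromosome, where radish is known to map. The 15 libraries hold nuclear RNA of the mushroom body of male Drosophila melanogaster. All flies carried UAS-unc84::GFP, a tagged nuclear envelope protein by which nuclei were pulled down, and the Gal4 driver R14H06-Gal4. In the knockdown groups this driver also expressed the RNAi hairpin UAS-Bap6032503 against Bap60, which belongs to the chromatin remodeller SWI/SNF, and in the control groups it expressed UAS-mCherryRNAi. Juvenile flies were 0 to 3 hours past eclosion (2 knockdown and 3 control libraries) and mature flies were 1 to 5 days old (5 and 5). Whether replicate libraries came from different flies is not in the labels, and p-values therefore reflect library-to-library spread that may be technical.

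The mushroom body is the centre of olfactory learning in the fly brain, and its intrinsic neurons are the Kenyon cells. A well-known memory pathway there runs through cAMP, made when dopamine meets an odour, but mutants of other genes also learn or remember poorly. Some of these encode kinases and their adaptor proteins, others encode adhesion molecules that hold synapses together or regulators of channels. Gbeta76C stands apart, because it is known as the beta subunit of the G protein that carries the light signal in photoreceptors.

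CaMKII (FBgn0264607, chromosome 4, 1035288 to 1053703, minus strand, BDGP6.54) is the calcium- and calmodulin-dependent protein kinase II, which phosphorylates synaptic proteins after calcium entry. 14-3-3zeta (FBgn0004907, 2R, 10099677 to 10109687, plus), known as leonardo, and 14-3-3epsilon (FBgn0020238, 3R, 18242531 to 18250550, plus) encode adaptor proteins that bind phosphorylated partners. Fas2 (FBgn0000635, X, 4132887 to 4206093, minus) is a relative of the vertebrate adhesion molecule NCAM, and klg (FBgn0017590, 3R, 22899284 to 22961731, plus), klingon, is another immunoglobulin adhesion molecule, required for long-term memory. Rgk1 (FBgn0264753, 2R, 19311148 to 19356525, minus) is a small GTPase of the RGK family, whose vertebrate members bind voltage-gated calcium channels. rad (FBgn0265597, X, 12988615 to 13079070, plus), radish, is needed for anaesthesia-resistant memory. Gbeta76C lies on 3L (FBgn0004623, 19687637 to 19689992, plus). All 8 are protein-coding, and the spans of Rgk1, klg and rad hold other genes with which they share no exon bases.

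Bap60 itself was at 11.2 ± 2.69 CPM (read counts scaled to library size; SD, n = 5) in mature knockdown and 17.3 ± 2.61 CPM in mature control libraries (log2 −0.63, two-sided exact permutation p = 0.00794, the smallest that 5 against 5 allows). In juvenile flies it was at 6.33 ± 1.84 (n = 2) and 9.49 ± 3.76 CPM (n = 3), with overlapping libraries (exact permutation p = 0.3, where the design allows no less than 0.1). Library totals ran from 17447070 to 70495790 gene counts. The common biological coefficient of variation that edgeR fitted was 0.865 for juvenile and 0.252 for mature libraries. The median coefficient of variation over genes at 5 CPM or more did not show this gap, at 15.1% and 12.2% in juvenile control and knockdown and 13.4% and 13.9% in mature control and knockdown libraries. Kenyon cell markers were present in every library, and so were markers of photoreceptors, muscle, fat body, glia and other neurons. Of 14 Kenyon cell markers none was at 0 in all libraries, and their summed level was 12709 to 12927 CPM in juvenile knockdown, 14805 to 22016 in juvenile control, 16757 to 25777 in mature control and 18621 to 26034 in mature knockdown libraries. In bulk nuclei, fewer nuclei of a type and less RNA per nucleus cannot be told apart.

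Levels of different genes were compared as CPM per kilobase of the span that no other gene covers, because genes nested in another gene were almost all listed at 0. This held for 525 of 527 protein-coding genes inside a gene of the same strand (99.6%) and 1053 of 1058 inside a gene of the opposite strand (99.5%), against 522 of 12100 other protein-coding genes (4.31%). On this scale the adaptor 14-3-3zeta was the most abundant member in all 4 groups, at 216 ± 31.5 CPM per kb in mature controls (n = 5), above 99.7% of 11766 genes. 14-3-3epsilon followed at 106 ± 12.1, CaMKII at 60.4 ± 11.9, Gbeta76C at 51.8 ± 16.2, Rgk1 at 29.2 ± 7.06 and rad at 17.7 ± 3.48 CPM per kb. The adhesion genes were lowest on this scale, Fas2 at 9.27 ± 0.971 and klg at 7.51 ± 0.693 CPM per kb, the latter above 69.1% of genes. In this order the ranges of neighbours overlapped between CaMKII and Gbeta76C, between Gbeta76C and Rgk1, and between Fas2 and klg. The order depends on the length used. The countable span is 73207 bases for Fas2, 60737 for klg and 2356 for Gbeta76C, while their exons make 7306, 4052 and 1466 bases. In CPM without a length, Gbeta76C was the lowest member in mature controls, at 122 ± 38.1, below klg at 456 ± 42.1. In juvenile controls Gbeta76C was higher in the order, at 83.1 ± 4.6 CPM per kb (n = 3), overlapping with 14-3-3epsilon at 86.3 ± 12.3 and above CaMKII at 62.5 ± 7.62. In juvenile knockdown libraries CaMKII followed 14-3-3zeta at 69.1 ± 4.1 (n = 2), overlapping with 14-3-3epsilon at 60.6 ± 14.5 and above Gbeta76C at 44.7 ± 6.04. Within mature controls the coefficient of variation ran from 9.22% for klg to 31.2% for Gbeta76C, with a median of 17.1% over the 8 genes against 13.4% over 6694 genes. The median over the 8 genes was 16.1% in mature knockdown, 12.3% in juvenile control and 10.6% in juvenile knockdown libraries.

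**Figure D1:**
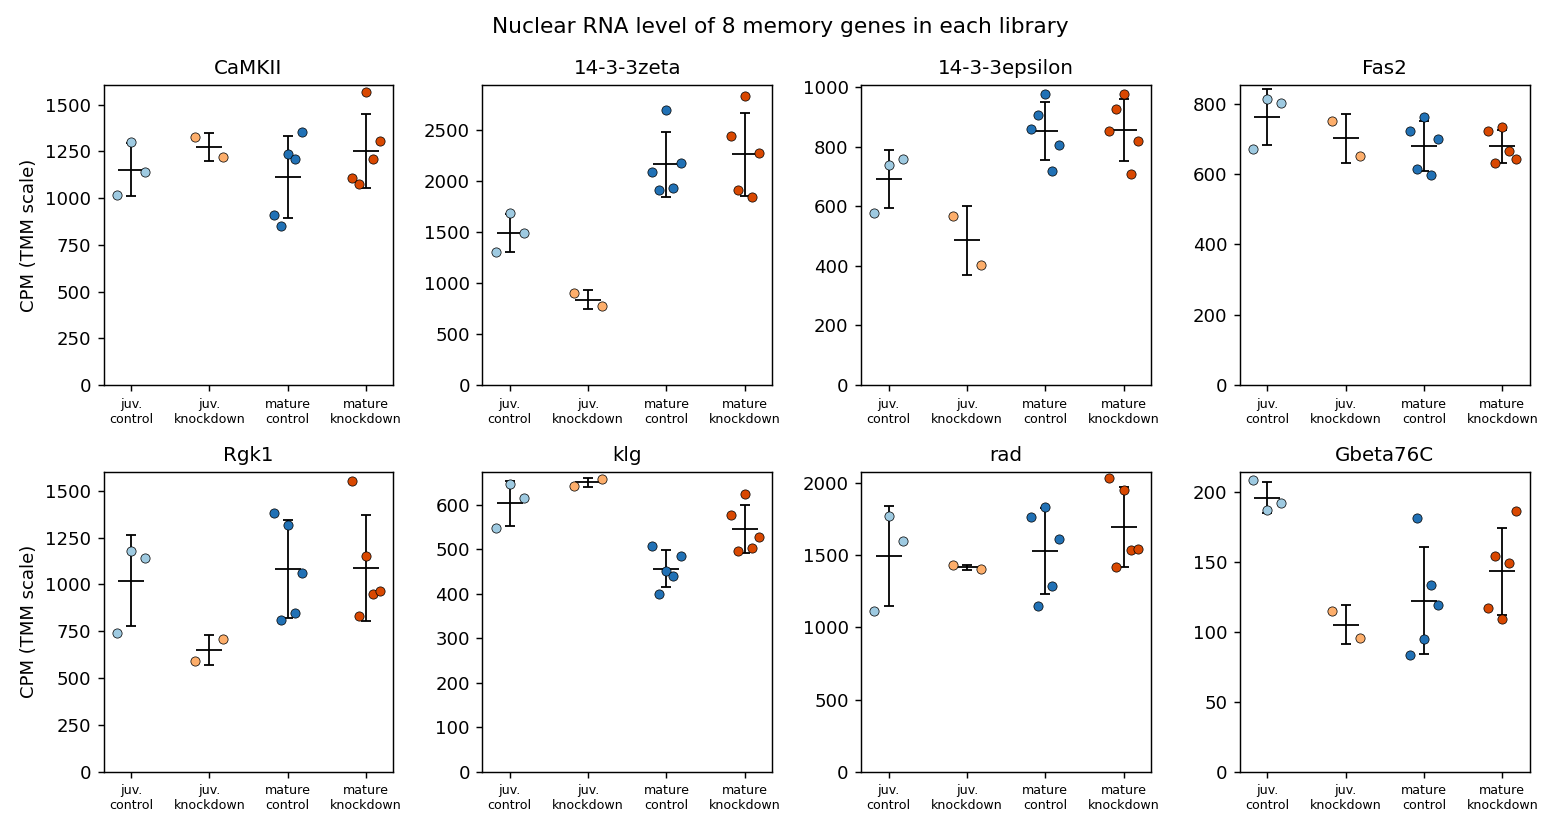
CPM on the TMM scale (y axis, from 0) of 8 memory genes in each of 15 libraries, by group; points are libraries, and bars show the mean and SD. In juvenile knockdown libraries 14-3-3zeta lies at 769 and 903 CPM, below the 13 other libraries, while CaMKII lies at 1219 and 1326 CPM, within the range of the other groups.

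The first question was which of these genes differ between Bap60 knockdown and control mushroom bodies just after eclosion. 2 of the 8 members fell, 14-3-3zeta and Gbeta76C, and none rose (edgeR's quasi-likelihood test, adjusted p under 0.05). Over all 11969 genes tested, 3.27% were called, 2.16% lower and 1.10% higher. The median log2 fold change of the members was −0.315, beside −0.0197 for all genes. The knockdown libraries lay wholly below the controls for 4 members, 14-3-3zeta, 14-3-3epsilon, Rgk1 and Gbeta76C, and wholly above them for none, where 15.2% of all genes lay wholly below and 14.8% wholly above.

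14-3-3zeta was at 903 and 769 CPM in the juvenile knockdown libraries and at 1306, 1680 and 1490 CPM in the controls. Both knockdown libraries were below the 13 other libraries of the series. The mean of 836 ± 94.6 CPM (n = 2) was 1.79-fold lower than the 1492 ± 187 CPM of the controls (n = 3; log2 −0.84, SE 0.17, edgeR adjusted p = 0.0123). The call was lost without juvenile knockdown 1 (adjusted p = 0.126) or 2 (0.151) and without juvenile control 2 (0.133) or 3 (0.168). 14-3-3epsilon, the other member of the family, was at 568 and 404 CPM against 579, 737 and 760 CPM. Knockdown 1 was close to control 1, although the groups did not overlap, and the difference did not pass the test (log2 −0.51, SE 0.18, edgeR adjusted p = 0.166, but 0.00434 with limma-voom).

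Rgk1 was at 592 and 707 CPM in the juvenile knockdown libraries and at 740, 1179 and 1140 CPM in the controls. Control 1 lay near the knockdown libraries and the 2 other controls well above them. The log2 fold change was −0.65 (SE 0.20, edgeR adjusted p = 0.0901); DESeq2 (adjusted p = 0.0170), limma-voom (0.000639) and edgeR without control 1 (0.0414) or without a filter on low counts (0.0436) called it lower. rad was at 1429 and 1403 CPM against 1110, 1773 and 1601 CPM, so its knockdown libraries lay inside the range of the controls (log2 −0.08, SE 0.19, edgeR adjusted p = 1.00).

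CaMKII was at 1326 and 1219 CPM against 1018, 1298 and 1139 CPM, overlapping and on average higher in the knockdown (log2 0.14, SE 0.16, edgeR adjusted p = 0.899). The adhesion gene Fas2 was at 751 and 651 CPM against 671, 814 and 801 CPM (log2 −0.12, SE 0.16, adjusted p = 0.937). klg was at 643 and 658 CPM against 548, 647 and 614 CPM (log2 0.11, SE 0.15, adjusted p = 0.944). For these 3 genes the groups overlapped and the estimates stayed within 1 SE of 0.

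Gbeta76C was at 115 and 95.2 CPM in the juvenile knockdown libraries and at 208, 187 and 192 CPM in the controls. The controls lay close together and far above both knockdown libraries. The fall was 1.86-fold (log2 −0.90, SE 0.15, edgeR adjusted p = 0.00434). The call was lost without knockdown 2 (adjusted p = 0.0529), without control 3 (0.0616) and in a fit of all 15 libraries (0.0629).

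Marker genes moved in the same comparison, where 2.16% of all genes fell and 1.10% rose. Of the 14 Kenyon cell markers 5 fell and none rose (median log2 −0.55), among them sNPF, a neuropeptide of Kenyon cells (log2 −1.15, edgeR adjusted p = 0.00227), and Dop1R1, a dopamine receptor (log2 −0.79, adjusted p = 0.0220). The Kenyon cell marker dnc went the other way, at 1415 to 1485 CPM in the knockdown against 912 to 1365 CPM in the controls. Of 16 photoreceptor markers tested 6 fell and 1 rose (median log2 −0.42), and their sum was 4737 and 5475 CPM in the knockdown against 6070 to 6742 CPM in the controls. ninaE, the major rhodopsin, fell (log2 −0.94, edgeR adjusted p = 0.00832), whereas the channel gene trpl was at 426 ± 17.4 CPM (n = 2) against 325 ± 24 CPM (n = 3; log2 0.39, adjusted p = 0.185). The largest rise among the photoreceptor markers was that of rdgA, at 1070 ± 33.7 against 643 ± 56.4 CPM. The photoreceptor markers ninaA, Arr2 and inaF-B were listed at 0 in every library, and each lies inside another gene. Summed muscle markers were higher in the knockdown, at 15353 and 18494 CPM against 9004 to 12436 CPM, and 2 of 12 tested rose. The sums of glial markers (1903 and 2529 against 3607 to 3898 CPM, 2 of 10 fell) and of markers of other neurons (1537 and 2901 against 3840 to 4421 CPM, none of 11 called) were lower. In each of these sums 1 gene made most of the gap. For glia it was e, which encodes the enzyme ebony, at 565 to 991 CPM against 1849 to 2235 CPM, and the other glial markers summed to 1339 and 1539 against 1663 to 1758 CPM. For other neurons it was ple, the tyrosine hydroxylase gene, at 654 to 1820 CPM against 2656 to 3242 CPM, and the rest summed to 883 and 1081 against 1069 to 1184 CPM. The glial gene repo was at 22.7 against 26.6 CPM on average, and the transporter gene VGAT at 103 against 108 CPM. Fat body markers summed to 637 and 655 against 597 to 615 CPM, and 1 of 9 rose. Markers listed at 0 throughout were moody, alrm and Tret1-1 for glia, Mf and TpnC4 for muscle and Tdc2 for other neurons. The part of these differences in the levels of 14-3-3zeta, Rgk1 and Gbeta76C was not tested.

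**Figure D2:**
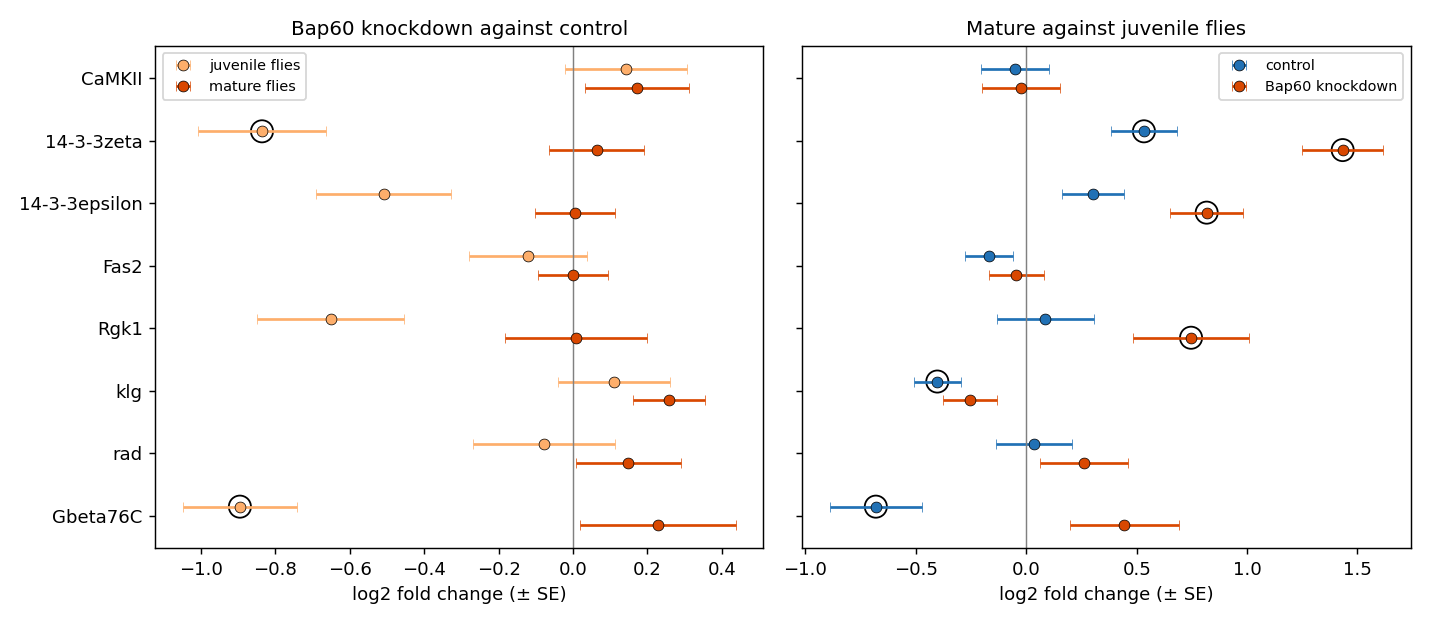
log2 fold change with its SE (x axis) of each of 8 memory genes, for knockdown against control at each age (left) and mature against juvenile flies in each genotype (right); circled points have an edgeR adjusted p under 0.05. 14-3-3zeta (−0.84) and Gbeta76C (−0.90) are circled on the left, in juvenile flies, and no mature point is.

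Partners of these genes gave a mixed picture in juvenile flies, where 2.16% of all genes fell and 1.10% rose. In a list of 10 calcium and calmodulin signalling genes around CaMKII, 2 fell and none rose. Cam, which encodes the calmodulin that activates CaMKII, fell from 3066 ± 227 CPM (n = 3) to 1818 ± 562 CPM (n = 2; log2 −0.75, SE 0.20, edgeR adjusted p = 0.0486). Pp2B-14D, a catalytic subunit of the calcium-dependent phosphatase calcineurin, was at 84.3 ± 8.74 CPM against 129 ± 8.35 CPM and also fell (log2 −0.62, SE 0.16, adjusted p = 0.0398). Both calls were lost with any 1 of the 5 juvenile libraries left out and, for example, under RLE scaling (adjusted p = 0.0605 and 0.0566), and Cam was called in 5 and Pp2B-14D in 6 of 9 other settings.

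Of 15 heterotrimeric G protein genes and their regulators 1 fell and none rose. It was Ggamma1, a gamma subunit, which went from 732 ± 48.7 to 394 ± 104 CPM (log2 −0.89, SE 0.18, edgeR adjusted p = 0.00959). Ggamma30A, the gamma subunit known from photoreceptors, was at log2 −0.46 (SE 0.18, adjusted p = 0.232). Of 11 tested genes for 14-3-3 binding proteins 1 rose, the forkhead transcription factor gene foxo, from 180 ± 13.9 to 294 ± 9.96 CPM (log2 0.71, SE 0.14, adjusted p = 0.0107).

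None of 14 integrin and adhesion partners of scb, 19 tested neuronal immunoglobulin adhesion genes related to Fas2 and klg, or 7 RGK and calcium channel genes was called by edgeR in juvenile knockdown flies. At an unadjusted p under 0.05 they numbered 3 higher, 5 higher and 0, where 5.34% of all genes passed that threshold and were higher. Of 25 tested genes known from other fly memory studies 2 rose and none fell. These were the homeobox gene Lim1, from 83.7 ± 10.6 to 162 ± 28.9 CPM (log2 0.95, SE 0.17, edgeR adjusted p = 0.00434), and the clock gene tim, at 138 ± 2.57 CPM against 90.7 ± 9.58 CPM in controls (log2 0.61, SE 0.15, adjusted p = 0.0390). The call of tim was lost with any 1 juvenile library left out, and those of foxo, Lim1 and Ggamma1 each held in 1 of the 5 such fits. In a fit of all 15 libraries the calls of tim (edgeR adjusted p = 0.132) and foxo (0.228) were also lost.

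The same comparison was made in mature flies, where Bap60 differed without overlap. None of the 8 members was called by edgeR, DESeq2 or limma-voom, and 1, klg, had an unadjusted p under 0.05. Over all 11978 genes edgeR called 14, or 0.117%, and 9.31% had an unadjusted p under 0.05. With the replicate number as a block, edgeR called 195 genes and again none of the 8. The groups overlapped for every member, where 1.93% of all genes were separated. The 8 estimates were all above 0, with a median log2 of 0.106 beside −0.0367 for all genes, but those of Fas2, 14-3-3epsilon and Rgk1 were within 0.01 of 0 and changed sign with other scalings or tools.

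klg was at 508, 399, 450, 440 and 484 CPM in mature controls and at 576, 496, 625, 503 and 528 CPM in mature knockdown libraries. The knockdown library was the higher one in 23 of 25 cross pairs and in 5 of 5 pairs with the same replicate number, by log2 0.13 to 0.47. The difference, 546 ± 54.4 against 456 ± 42.1 CPM (n = 5 each), was log2 0.26 (SE 0.10, unadjusted p = 0.0171, edgeR adjusted p = 0.469). With the replicate block it was 0.26 (SE 0.06, edgeR adjusted p = 0.0553).

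14-3-3zeta was at 2089, 1910, 2688, 1933 and 2174 CPM in mature controls and at 2434, 1913, 2833, 1838 and 2268 CPM in the knockdown. In both groups library 3 was the highest, and the means differed by log2 0.06 (SE 0.13, edgeR adjusted p = 0.915). 14-3-3epsilon was at 858, 905, 976, 720 and 807 CPM and at 853, 927, 977, 707 and 820 CPM (log2 0.01, SE 0.11, adjusted p = 0.992). Libraries with the same number were nearly level, and library 4 was the lowest in both groups.

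CaMKII was at 910, 850, 1233, 1211 and 1354 CPM in mature controls and at 1108, 1073, 1569, 1209 and 1307 CPM in the knockdown (log2 0.17, SE 0.14, edgeR adjusted p = 0.731). 3 of 5 numbered pairs were higher in the knockdown. Rgk1 was at 1382, 810, 1317, 847 and 1058 CPM and at 1552, 830, 1149, 948 and 967 CPM (log2 0.01, SE 0.19, adjusted p = 0.993). Its libraries spread widely within each group, 1.71 and 1.87 times from lowest to highest.

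Fas2 was at 597 to 763 CPM (median 700) in mature controls and 630 to 735 CPM (median 665) in the knockdown, the smallest difference of the 8 (log2 0.00, SE 0.09, edgeR adjusted p = 0.999). rad was at 1764, 1148, 1835, 1288 and 1613 CPM and at 2032, 1417, 1948, 1537 and 1544 CPM (log2 0.15, SE 0.14, adjusted p = 0.775). Gbeta76C was at 83.3, 181, 94.5, 133 and 119 CPM and at 117, 154, 109, 149 and 186 CPM, with wide and overlapping groups (log2 0.23, SE 0.21, adjusted p = 0.765). edgeR called no gene of the 7 partner and memory lists or the 6 marker lists in mature knockdown flies. Of the partner and memory genes DESeq2 and limma-voom each called 1, Ggamma1, and edgeR with the replicate block called 3, Ggamma1, Lac and tim. Unlike in juvenile flies, tim had a lower mean in the knockdown, at 100 ± 24.7 against 130 ± 28.4 CPM, with overlap. Of the markers DESeq2 called 2, Trhn and zyd, and the block called these and rdgA. In the edgeR test without the block Ggamma1 came nearest, at 860 ± 65.2 against 625 ± 53.4 CPM (log2 0.46, SE 0.09, edgeR adjusted p = 0.0721), with all 5 knockdown libraries above all 5 controls.

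Whether the knockdown effect differed with age was tested directly, as the mature minus the juvenile effect in 1 fit of all 15 libraries. None of the 8 members passed, where edgeR called 1.55% of 11997 genes. 3 of the 8 had an unadjusted p under 0.05, as had 16.3% of all genes, DESeq2 called 14-3-3zeta and Gbeta76C, and limma-voom called no member. The difference for 14-3-3zeta was log2 0.90 (SE 0.23, edgeR adjusted p = 0.0516, and from 0.0119 to 0.350 over 23 alternatives). For Gbeta76C it was log2 1.12 (SE 0.33, adjusted p = 0.0927, from 0.0261 to 0.410). For 14-3-3epsilon and Rgk1 it was log2 0.51 (SE 0.21, adjusted p = 0.227) and 0.66 (SE 0.34, adjusted p = 0.353), and for CaMKII 0.03 (SE 0.24, adjusted p = 0.978). Among partners the effect differed for Ggamma1 (log2 1.35, SE 0.18, adjusted p = 0.00331), which fell in juvenile knockdown flies and had a higher mean in mature ones.

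Mature and juvenile flies were then compared within each genotype. These fits pooled 1 common coefficient of variation of 0.475 over ages whose own fits gave 0.865 and 0.252. The comparison joins age with whatever else differed between the juvenile and mature libraries. One such difference is that an unc84 entry is listed for every mature library (109399 to 966595 counts) and for no juvenile library. Its part in the comparisons across ages was not tested. In controls 1 member rose from juvenile to mature flies and 2 fell, where 12.2% of 11997 genes rose and 9.87% fell. In knockdown flies 3 members rose and none fell, where 17.8% rose and 16.4% fell. Mature control libraries lay wholly above juvenile ones for 1 member and wholly below for 2, beside 15.7% and 10.9% of 11997 genes. For knockdown flies the counts were 3 above and 1 below, beside 24.5% and 26.9%. The 2 comparisons of age contrast different libraries, but both come from the same fit with 1 pooled spread and are not independent. Each also shares its libraries with the knockdown comparisons above. Markers moved with age as well: of 14 Kenyon cell markers 2 rose in controls (median log2 0.20) and 9 rose in knockdown flies (median log2 0.78), with no fall in either. Summed fat body markers went from 597 to 615 CPM in juvenile to 2723 to 3612 CPM in mature controls, and glial markers from 3607 to 3898 CPM to 938 to 1896 CPM. The fat body sum was mostly the lipoprotein gene apolpp, which went from 121 to 178 CPM to 1969 to 2698 CPM. Without it the sum went from 430 to 481 CPM to 717 to 914 CPM, while Fbp1 had means of 10.9 and 9.86 CPM and Lsd-1 of 39.6 and 28.9 CPM. Most of the glial gap was e, at 1849 to 2235 CPM in juvenile and 58.6 to 602 CPM in mature controls. The other glial markers went from 1663 to 1758 CPM to 879 to 1295 CPM, and repo had means of 26.6 and 28.6 CPM. Their part in the changes of the members was not tested.

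14-3-3zeta rose in both genotypes. In controls it went from 1492 ± 187 (n = 3) to 2159 ± 315 CPM (n = 5), 1.45-fold (log2 0.53, SE 0.15, edgeR adjusted p = 0.0152). In knockdown flies it went from 836 ± 94.6 (n = 2) to 2257 ± 405 CPM (n = 5), 2.70-fold (log2 1.43, SE 0.18, adjusted p = 2.60e-05). Every mature library of a genotype lay above every juvenile one, as for 15.7% of all genes in controls and 24.5% in knockdown flies. 14-3-3epsilon rose in knockdown flies, where it was at 486 ± 116 CPM in juvenile and 857 ± 104 CPM in mature libraries (log2 0.82, SE 0.17, adjusted p = 0.00125). It differed in controls by log2 0.30 (SE 0.14, adjusted p = 0.128), and was called there with the replicate block (log2 0.40, edgeR adjusted p = 0.0434) and with library totals alone (log2 0.39, 0.0234).

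Rgk1 rose in knockdown flies, from 649 ± 81.5 (n = 2) to 1089 ± 283 CPM (n = 5; log2 0.75, SE 0.26, edgeR adjusted p = 0.0375), without overlap. This call was lost under limma-voom (adjusted p = 0.204), RLE (0.0656) and upper-quartile scaling (0.0826), a stricter filter (0.0617) and the replicate block (0.0561). It was also lost without juvenile knockdown 1 (0.194) or 2 (0.0886) and without mature knockdown 1 (0.0646) or 3 (0.0619). In controls Rgk1 was at 1020 ± 243 and 1083 ± 262 CPM (log2 0.09, SE 0.22, adjusted p = 0.801). rad differed by log2 0.03 (SE 0.17, adjusted p = 0.904) in controls and 0.26 (SE 0.20, adjusted p = 0.321) in knockdown flies.

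klg went the other way. In controls it fell from 603 ± 50.4 (n = 3) to 456 ± 42.1 CPM (n = 5), 1.32-fold (log2 −0.40, SE 0.11, edgeR adjusted p = 0.0106), and every mature control lay below every juvenile one. In knockdown flies it was at 651 ± 10.2 and 546 ± 54.4 CPM, again without overlap (log2 −0.25, SE 0.12, adjusted p = 0.109; called with DESeq2, adjusted p = 0.00862, RLE scaling, 0.0222, a stricter filter, 0.0173, library totals alone, 0.0497, and without juvenile control 1, 0.0488). Fas2 was at log2 −0.17 (SE 0.11, adjusted p = 0.280) in controls and −0.05 (SE 0.12, adjusted p = 0.797) in knockdown flies. The smallest age differences in knockdown flies were those of CaMKII and Fas2, and CaMKII was at log2 −0.05 (SE 0.15, adjusted p = 0.832) in controls and −0.02 (SE 0.18, adjusted p = 0.935) in knockdown flies.

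Gbeta76C fell in controls, from 196 ± 10.8 (n = 3) to 122 ± 38.1 CPM (n = 5; log2 −0.68, SE 0.21, edgeR adjusted p = 0.0263), and the highest mature control, at 181 CPM, was just below the lowest juvenile one, at 187 CPM. In knockdown flies it was at 105 ± 14.2 and 143 ± 30.9 CPM, with overlap (log2 0.44, SE 0.25, adjusted p = 0.173). Over the same control libraries the summed photoreceptor markers went from 6070 to 6742 CPM to a wider range of 5860 to 12314 CPM, and 3 of 16 rose and 3 fell. In controls the calls of 14-3-3zeta (adjusted p = 0.118), klg (0.0977) and Gbeta76C (0.165) were lost under limma-voom with a variance level per age. That of Gbeta76C was also lost when libraries were scaled by their totals alone (0.0641), without juvenile control 1 (0.0895) or 3 (0.0502), and without mature control 1 (0.0526) or 3 (0.0649). That of 14-3-3zeta was lost without juvenile control 1 (0.0600) or 3 (0.0558), and that of klg without juvenile control 2 (0.0649) or mature control 3 (0.0563).

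The listed neuronal adhesion genes around Fas2 and klg, mostly immunoglobulin genes, fell more often than they rose with age. Of 19 tested, 9 fell and 1 rose in controls (median log2 −0.47), and 9 fell and 1 rose in knockdown flies (median log2 −0.42), beside medians of −0.0557 and −0.0714 for all genes. Over all genes 9.87% fell and 12.2% rose in controls, and 16.4% fell and 17.8% rose in knockdown flies. bdl, which encodes borderless, a protein of visual axons, fell in controls from 250 ± 20.8 CPM to a mean of 124 ± 15.4 CPM in mature flies (log2 −1.01, SE 0.12, edgeR adjusted p = 1.68e-05). Fas3, fasciclin III, was at 378 ± 13.6 CPM in juvenile and 222 ± 31.7 CPM in mature controls (log2 −0.77, SE 0.13, adjusted p = 0.000369). In knockdown flies sdk, sidekick, fell, with 312 ± 9.89 CPM in juvenile and 137 ± 20 CPM in mature libraries (log2 −1.18, SE 0.17, adjusted p = 9.65e-05). The gene that rose in both was wrapper, a glial adhesion gene (log2 1.41, adjusted p = 0.00253, in controls).

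Over all genes 12.2% rose and 9.87% fell in controls, and 17.8% rose and 16.4% fell in knockdown flies. In calcium and calmodulin signalling, 3 of 10 genes rose and none fell in controls. In knockdown flies 4 rose and 1 fell, the fall being no more frequent than over all genes. Pp2B-14D rose in both (log2 0.37, SE 0.10, edgeR adjusted p = 0.0152, and 1.01, SE 0.12, adjusted p = 1.95e-05), as did CanB, the regulatory subunit of calcineurin (log2 0.49, SE 0.14, and 0.87, SE 0.16). In controls limma-voom called neither (adjusted p = 0.125 and 0.104), and the call of CanB was lost without juvenile control 3 (0.0818). Of 15 genes for G protein subunits, their effectors and regulators 4 fell and none rose in controls. The 3 falls with the smallest adjusted p were loco, norpA and Gprk2, none of which encodes a G protein subunit. Of these norpA is also a photoreceptor marker here. Under limma-voom norpA (adjusted p = 0.108) and Gprk2 (0.152) were not called. In knockdown flies 7 rose and 2 fell, the falls again no more frequent than over all genes. Ggamma1 (log2 1.13, SE 0.15, adjusted p = 2.74e-05) and the alpha subunit gene Galphao (log2 0.86, SE 0.17, adjusted p = 0.000911) rose in knockdown flies. In both genotypes loco, a regulator that ends G protein signals, fell (log2 −1.18, SE 0.20, and −1.23, SE 0.22).

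Of the 7 RGK and calcium channel genes, Rgk3, a relative of Rgk1, rose in controls (log2 0.57, SE 0.12, edgeR adjusted p = 0.00247) and in knockdown flies (log2 0.79, SE 0.14, adjusted p = 0.000508). The T-type channel gene Ca-alpha1T fell in both (log2 −0.33, SE 0.11, edgeR adjusted p = 0.0406, and −0.50, SE 0.13, adjusted p = 0.00572). The call in controls held in 5 of 9 settings and 6 of 15 fits with 1 library left out, and was lost under limma-voom (adjusted p = 0.158), upper-quartile scaling (0.0662), the replicate block (0.094) and a fit of the 2 groups alone (0.0878). The call in knockdown flies was lost without juvenile knockdown 1 (0.224). Of 14 integrin genes and partners 2 rose and 2 fell in controls, and 1 rose and 6 fell in knockdown flies, beside 12.2% and 9.87% of all genes in controls and 17.8% and 16.4% in knockdown flies. The control counts of this list and of the other memory genes are near those shares. So are those of the RGK and calcium channel genes, where 1 rose and 1 fell, and of the 14-3-3 binding proteins. In knockdown flies the counts of the other memory genes were also near those shares. The beta integrin gene mys fell in both (log2 −0.50, SE 0.13, and −0.58, SE 0.14), but not under limma-voom (adjusted p = 0.0861 and 0.0515), nor without juvenile control 3 in controls (edgeR, 0.0589) or juvenile knockdown 1 in knockdown flies (0.0956). Of 11 genes for 14-3-3 binding proteins 1 rose and none fell in controls, and 3 rose and 3 fell in knockdown flies. Of 25 other memory genes 2 rose and 2 fell in controls, and 6 rose and 3 fell in knockdown flies. Fmr1, the fragile X protein gene, rose in both (log2 0.65, SE 0.11, and 0.79, SE 0.13).

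The 10 mature libraries also show how the members vary with each other within a group. After the group means were removed from log2 CPM, 20 of the 28 pairs of members had a positive Pearson's r, with a median of 0.41 and a range from −0.90 to 0.95. These values are a description over libraries that share depth, scaling and replicate numbers. rad, Fas2, Rgk1 and klg varied together, with r from 0.73 to 0.95. 14-3-3zeta joined them at 0.67 to 0.78. 14-3-3epsilon had r from 0.23 to 0.47 and CaMKII from 0.09 to 0.44 with these 4 genes, and both were nearer to 14-3-3zeta, at 0.63 and 0.56. With each other they had r = −0.04. Gbeta76C ran against the others, from −0.25 with CaMKII to −0.90 with rad.

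**Figure D3:**
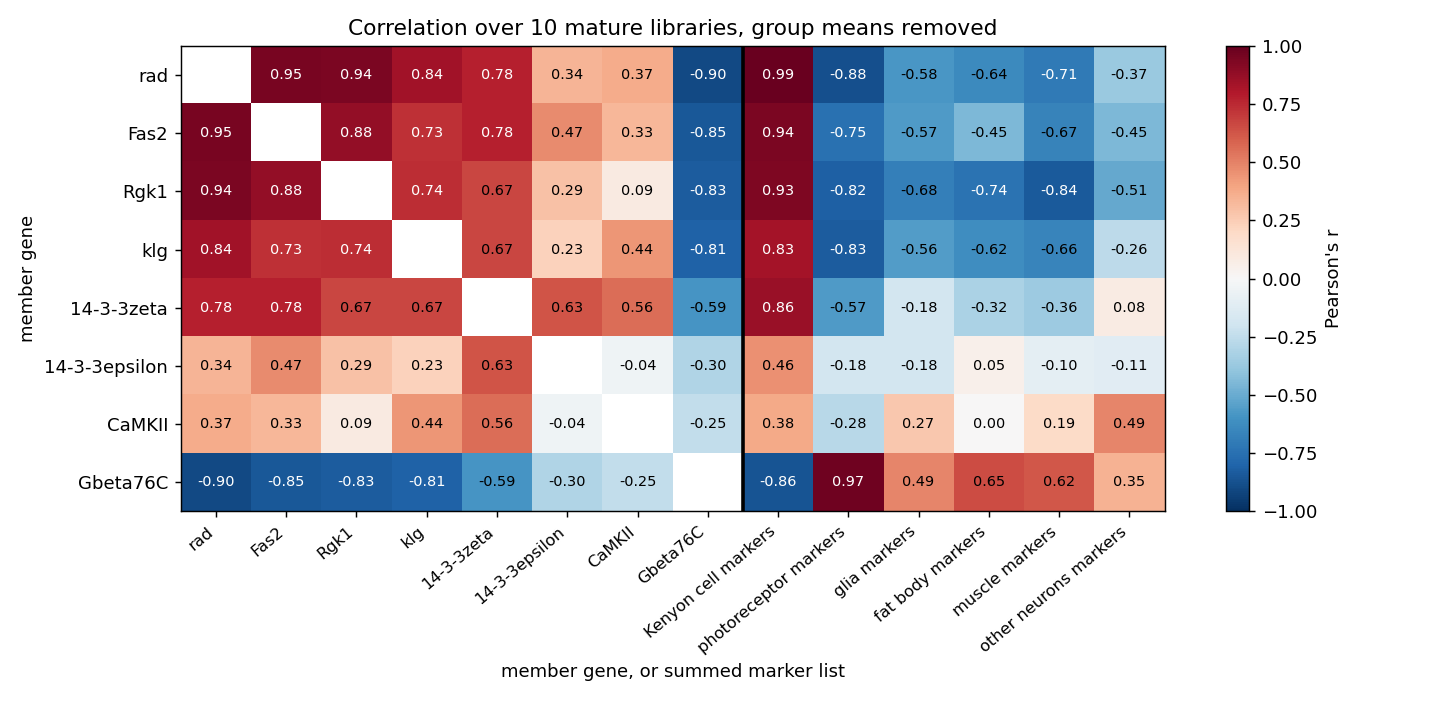
Pearson's r of log2 CPM over the 10 mature libraries with group means removed, between the 8 memory genes (left block) and between each gene and the summed markers of 6 cell types (right block). rad reaches 0.99 with Kenyon cell markers, CaMKII 0.38, and Gbeta76C is at 0.97 with photoreceptor and −0.86 with Kenyon cell markers.

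A similar order appeared against cell type markers, except that 14-3-3zeta came above klg. With the summed Kenyon cell markers r was 0.99 for rad, 0.94 for Fas2, 0.93 for Rgk1, 0.86 for 14-3-3zeta and 0.83 for klg. It was 0.46 for 14-3-3epsilon and 0.38 for CaMKII. Gbeta76C was at −0.86 with the Kenyon cell markers and at 0.97 with the 19 photoreceptor markers (Spearman's rho 0.89, n = 10). The latter was 0.93 without the 2 libraries farthest from the median marker level and 0.95 to 0.99 with any 1 library left out. With ninaE, the most abundant marker, left out of the sum it was 0.93. Library by library, mature control 2 had the highest photoreceptor sum (12314 CPM) and 181 CPM of Gbeta76C, and mature control 1 had the lowest (5860 CPM) and 83.3 CPM.

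Juvenile libraries lay above that relation when ninaE was in the sum, and less so or not at all without it. Juvenile controls had 187 to 208 CPM of Gbeta76C at photoreceptor sums of 6070 to 6742 CPM. Mature controls 1 and 3, at sums of 5860 and 6847 CPM, had 83.3 and 94.5 CPM. ninaE itself was at 1445 to 1714 CPM in juvenile and 2682 to 7192 CPM in mature controls, whereas chp, a photoreceptor membrane protein gene, had means of 714 and 325 CPM. Without ninaE the sums of juvenile controls, 4626 to 5028 CPM, lay within the 3178 to 5122 CPM of mature controls. There mature controls 2, 4 and 5, at 5122, 4508 and 4494 CPM, had 181, 133 and 119 CPM of Gbeta76C, still below the juvenile controls but nearer to them. The juvenile knockdown libraries, at 4737 and 5475 CPM of photoreceptor markers, had 95.2 and 115 CPM. For rad, the juvenile knockdown libraries had 1403 and 1429 CPM at Kenyon cell sums of 12709 and 12927 CPM, whereas juvenile control 1 had 1110 CPM at 14805 CPM.

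**Figure D4:**
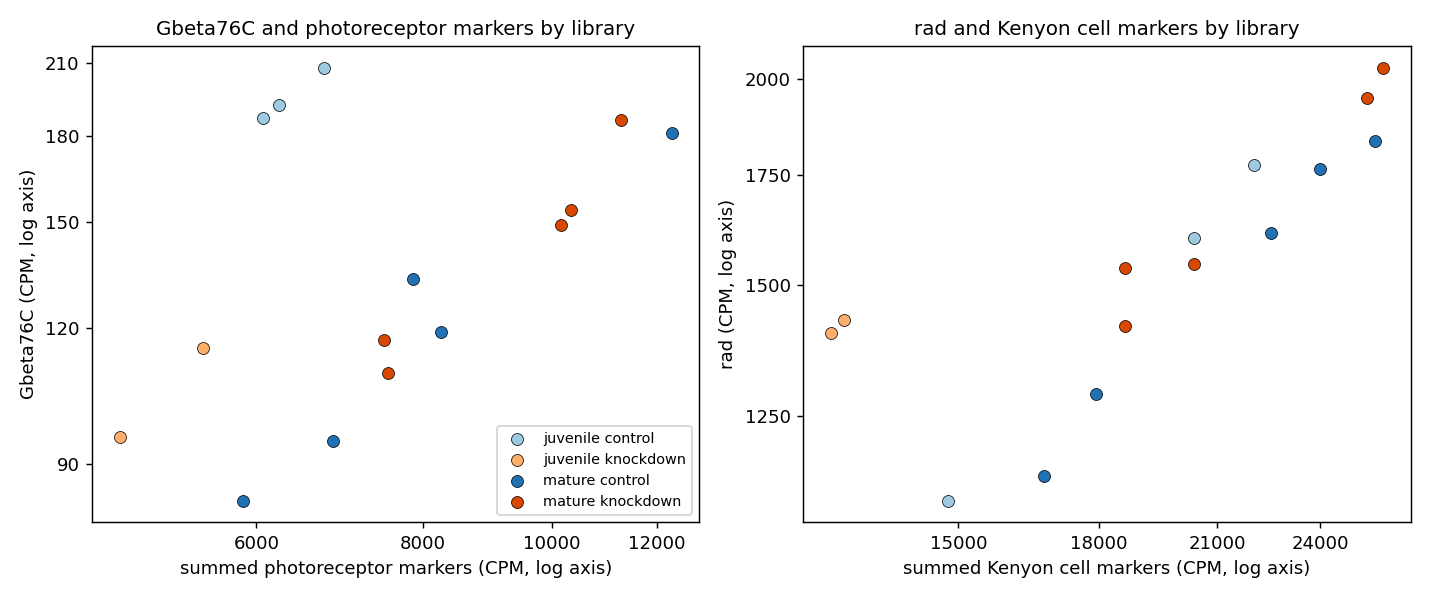
CPM of Gbeta76C against summed photoreceptor markers (left) and of rad against summed Kenyon cell markers (right), log axes, 1 point per library. Mature libraries follow a line in both plots. For Gbeta76C the 3 juvenile controls (187 to 208 CPM) and the 2 juvenile knockdown libraries (95.2 and 115 CPM) lie above it. For rad the 2 juvenile knockdown libraries lie above it (1403 and 1429 CPM).

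The genes whose level was most like that of each member were sought among 6664 genes over the same 10 libraries. The values below are the highest of 6664 per member. How high such maxima run for other genes, and how many genes came near them, was not determined. They therefore show no link particular to the genes named. Nearest to Rgk1 were rut, the adenylyl cyclase of the cAMP memory pathway, and sqz and Sol1, each at r = 0.99. Nearest to rad were olf413, the dopamine receptor gene Dop1R1 and Gfrl, also at 0.99. 14-3-3zeta was nearest to jdp and crp (both 0.97), Fas2 to hzg (0.98), Bx and Trpm (0.97 each), and klg to tutl, an immunoglobulin gene, at 0.96. CaMKII was nearest to Cadps, a gene of dense-core vesicle release, and Cals, calsyntenin (both 0.98). 14-3-3epsilon was nearest to ctp, a dynein light chain gene (0.97), Rap1 and Pp1alpha-96A (0.96 each). Gbeta76C was nearest to trpl (0.97), SmydA-8 and trp (0.95 each), of which trpl and trp encode light-activated channels of photoreceptors and are among the 19 markers. rut, Dop1R1 and jdp are among the Kenyon cell markers.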

How the data were processed

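Each deposited file lists, for 1 library, raw counts of reads per gene ID. The submitters' processing notes name STAR 2.5.3a, HTSeq 0.7.1 and the BDGP6 build; for strand and counting mode, the setting is not given in the sources used here. Gene names and positions are those of BDGP6.54, release 115. HTSeq's ambiguous reads (7.08% to 7.75%) and reads outside genes were left out. No 2 replicates agreed within sampling noise.

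Counts were tested in R 4.3.3 with edgeR 4.0.16 (quasi-likelihood, two-sided, Benjamini-Hochberg over all genes tested): TMM over 15 libraries, filterByExpr (minimum count 10, total 15), call at an adjusted p under 0.05. Knockdown effects were fitted within an age, the other comparisons over all 15 libraries. CPM are on the TMM scale, and correlations used log2(CPM + 0.5). Alternatives used DESeq2 1.42.0 and limma 3.58.1 (voom with quality weights), other scalings, filters and library choices, a replicate block, and leaving out each library. The procedure was run on simulated data with a smaller juvenile spread than the common value fitted here, so that run cannot show how it performs on the juvenile libraries.

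Same-numbered mature libraries had a positive r of their deviations (0.22 to 0.79 for all 5 numbers), although number 2 was nearest to number 4. The numbers were taken as pairs in descriptions and in the replicate block, and the main test used no pairs. Juvenile numbers did not pair libraries (r = −0.07 and −0.01). The members, marker lists and partner lists were chosen with earlier results of these data known. The named genes are the members, Bap60, up to 3 called genes of each list and comparison with the smallest adjusted p, and the 3 genes most like each member at 5 CPM or more. Markers and Ggamma30A, wrapper and, for mature knockdown flies, Ggamma1, Lac and tim were named outside this rule after their values were seen.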

Additional observations from a re-analysis of the deposited data

Results flagged for a closer look

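For 2 partner genes, Ggamma1 and Pp2B-14D, and 1 gene of the list of other memory genes, stau, the effect of the knockdown differed between the ages in the direct test over all 15 libraries (edgeR, Benjamini-Hochberg). Ggamma1 differed by log2 1.35 (adjusted p = 0.00331), Pp2B-14D by log2 0.64 (adjusted p = 0.0483) and stau, which encodes the RNA-binding protein Staufen, by log2 0.63 (adjusted p = 0.0464). Ggamma1 was called in 15 of 15 fits with 1 library left out, and Pp2B-14D and stau in 2 of 15 each. Of 8 other settings Ggamma1 was called in 7 and lost under limma-voom (adjusted p = 0.0969), while Pp2B-14D was called in 2 and stau in 1. stau was at 215 ± 24.7 CPM (n = 2) against 305 ± 23.9 CPM (n = 3) in juvenile flies and at 431 ± 38.7 against 395 ± 17 CPM (n = 5 each) in mature flies. No library stood apart from its group in the 18 sets of 5 mature values tested for the 8 members and Bap60.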

How the results depend on the processing

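The direction of 14-3-3zeta and Gbeta76C in juvenile knockdown flies held in all 14 alternatives each, but 14-3-3zeta was called in 8 of 9 settings and 1 of 5 fits with a library left out, and Gbeta76C in 8 of 9 and 3 of 5. Juvenile comparison: edgeR called 391 genes, DESeq2 801, limma-voom 794 and a fit of all 15 libraries 640, and 46 to 211 with 1 library left out. The 8 members gave 4 calls under limma-voom, 1 under the replicate block (where 14-3-3zeta had an adjusted p = 0.174), 1 in the fit of all 15 libraries and 0 to 3 with 1 library left out. The split was 132 higher and 259 lower, but 219 and 208 under RLE and 276 and 173 under upper-quartile scaling, with the median of all genes at −0.0197, and at 0.0889 under the latter. Juvenile numbers did not pair libraries; the block left 335 genes called. Mature comparison: 14 genes by edgeR, 90 by DESeq2, 50 by limma-voom, 195 with the block, 7 in the fit of all 15 libraries and 3 to 19 with 1 library left out; no member was called in any. Controls, mature against juvenile: limma-voom called 1360 genes and 0 members, and 1 to 3 members were called with 1 library left out (2023 to 2721 genes). Knockdown flies: 2516 to 4640 genes and 2 to 4 members. Difference of effects: 186 genes by edgeR, 550 by DESeq2 with 2 members, 0 by limma-voom, 102 under upper-quartile scaling, 84 with the block, and 91 to 457 genes and 0 to 1 members with 1 library left out; 1 member was called with library totals alone and 1 without a filter. In knockdown flies with age that median went from −0.0714 to −0.184 under RLE scaling, where the split changed from 2136 higher and 1968 lower to 1681 and 2249. Bap60 ranged from −0.917 to −0.315 in juvenile and from −0.736 to −0.499 in mature flies with 1 library left out. The r of Gbeta76C with photoreceptor markers was 0.96 to 0.97 under 3 other scalings and 0.93 without ninaE, all chosen after seeing the data.

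Estimates near 0 changed sign. rad in juvenile flies was 0.035 under upper-quartile scaling and 0.013 with the block (−0.21 to 0.068 with 1 library left out). In mature flies Fas2 was −0.036 under limma-voom, −0.00034 under upper-quartile scaling, −0.057 with library totals alone, −0.00056 without a filter and −0.0022 with a stricter one. 14-3-3epsilon was −0.030 under limma-voom and −0.058 with totals alone, and Rgk1 was −0.072 and −0.048. For controls with age, rad was −0.027 under both DESeq2 and RLE scaling and −0.042 with the stricter filter, and CaMKII 0.019 with totals alone. The difference of effects for CaMKII was −0.020 under both DESeq2 and RLE scaling, −0.076 under upper-quartile scaling, −0.063 with totals alone, −0.0063 with the stricter filter and −0.065 with the block. With 1 library left out, the mature effects ranged from −0.057 to 0.065 for 14-3-3epsilon, −0.027 to 0.16 for 14-3-3zeta, −0.048 to 0.050 for Fas2 and −0.15 to 0.11 for Rgk1. For age in controls they ranged from −0.13 to 0.054 for CaMKII, −0.085 to 0.22 for Rgk1 and −0.13 to 0.19 for rad, and in knockdown flies from −0.11 to 0.11 for CaMKII and −0.14 to 0.13 for Fas2. The CaMKII difference of effects ranged from −0.062 to 0.13. The cause was not tested. The limits are 2 juvenile knockdown libraries and a pooled spread for comparisons across ages.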
